A study of Mus musculus with 12 samples.

Results

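The response of mutant huntingtin striatal cells to heat was followed in 6 Affymetrix mouse arrays, out of 12 in the whole study. The cells were STHdhQ111/Q111, a line from the embryonic striatum of knock-in mice in which both huntingtin alleles carry an expanded glutamine repeat. Of these 6 arrays, 3 came from Q111 cells that had been heated to 42 °C for 6 h, and 3 from untreated Q111 cells at the growth temperature of 33 °C. The other 6 arrays hold STHdhQ7/Q7 cells, the wild type counterpart with a normal repeat, in the same 2 conditions with 3 arrays each. Changes in Q7 cells are given below only beside those of Q111 cells. All 12 arrays, however, enter the choice of probe set and the estimate of spread behind each test. All 4 groups were grown in medium with serum and the selection drug G418, up to passage 15. Arrays were taken by their labels, and every probe set naming 1 gene was used, which gave 18193 genes, each read by its brightest probe set. Values are deposited log2 levels, "change" is the mean of the heat-shocked arrays minus the mean of the untreated arrays on that scale, errors of changes are standard errors, and a gene is called where limma's Benjamini-Hochberg adjusted p over all genes is under 0.05. Levels up to 5.14, the highest value of any bacterial control probe set, are within background range. The labels do not say whether the 3 arrays of a group came from separate cultures, so p-values measure the spread between arrays, which may be technical.

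Heat unfolds proteins, and cells answer through heat shock factors, chiefly HSF1. When chaperones leave HSF1 to bind unfolded proteins, it forms trimers that bind repeats of the letters GAA and TTC in promoters and switch on chaperone genes. Chaperones of the Hsp70 class, with their J-domain partners, and small heat shock proteins hold or refold unfolded proteins, and mutant huntingtin with its long glutamine tract is among the proteins known to misfold and aggregate. The study set these arrays beside maps of where HSF1 binds in the same lines. As a model the cells have limits: they are immortalised with a temperature-sensitive large T antigen, which is less stable at higher temperature, so that any loss of it and the heat itself cannot be told apart here.

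The striatal label was checked against markers of the cell types a striatal culture could hold. Over all 18193 genes 4322 were within background range on all 6 arrays, and marker counts are to be read beside that share. Of 12 listed markers of striatal projection neurons 4 were within background range on all 6 arrays, as were 4 of 14 neuron markers, 4 of 14 neural progenitor markers, 1 of 9 astrocyte markers, 5 of 9 oligodendrocyte lineage markers, 5 of 10 microglia markers, 6 of 9 endothelium markers and 3 of 10 fibroblast markers. The dopamine receptor gene Drd2, which defines indirect pathway neurons, had a mean of 3.06 in untreated cells and Ppp1r1b, the striatal phosphoprotein DARPP-32, a mean of 4.88. Drd1, the direct pathway receptor, read 3.88, 4.60 and 5.26 in untreated cells and 6.44, 7.43 and 6.92 after heat, a change of 2.35 ± 0.44 (adjusted p = 0.00127). Bcl11b, a transcription factor of striatal projection neurons, rose from 4.44, 4.07 and 4.53 to 6.0, 6.46 and 6.04. Of the 12 markers of these neurons 3 were called higher and 1 lower, beside 20% and 28.2% of all genes. Collagen gene Col1a1, a fibroblast marker, was among the brightest, with a mean of 13.16 in untreated cells. In RNA of a whole culture, fewer cells of a type and less RNA per cell cannot be told apart.

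The heat-shocked arrays did not resemble each other equally. Heat shock replicates 1 and 2 correlated at r = 0.990 over all probe sets, whereas replicate 3 correlated with them at 0.969 and 0.962. The untreated arrays correlated at 0.986 to 0.991. The median level over genes was 7.29 to 7.45 on the untreated arrays, 6.74 on heat shock replicates 1 and 2, and 6.43 on replicate 3. The loss lay in the middle of the range of levels. Genes were put into 5 groups of equal size by mean level, and in group 3 the median change was -0.60 on replicate 1, -0.53 on replicate 2 and -1.17 on replicate 3, against the mean of the untreated arrays. In group 5, the brightest, the median change was -0.03. The 3′ minus 5′ signal of actin, a sign of RNA quality that grows as RNA breaks down, was 0.50, 1.14 and 0.53 in untreated cells and 0.99, 1.39 and 1.38 after heat. With that signal as a covariate 4381 genes were called in place of the 8758 given below. All 8758 kept their sign in that fit and their median size was 1.03 in place of 1.08, while the median standard error was 0.319 in place of 0.224.

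**Figure D1:**
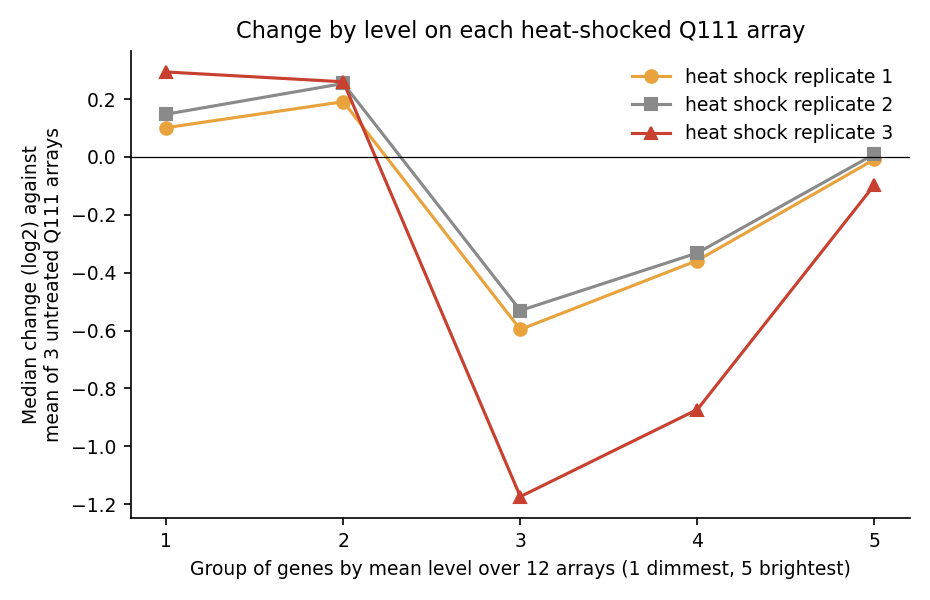
Median change (log2, y axis) of each heat-shocked Q111 array against the mean of the 3 untreated arrays, in 5 equal groups of the 18193 genes by their mean level over 12 arrays (x axis, 1 the dimmest). All 3 arrays dip in groups 3 and 4, and replicate 3 dips most, to -1.17.

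Heat changed close to every second gene tested. Of 18193 genes 8758 were called (48.1%), 3633 of them higher (20%) and 5125 lower (28.2%). The 3 heat-shocked values lay wholly above or below the 3 untreated values in 9947 genes (54.7%). They rose wholly in 4407 (24.2%) and fell wholly in 5540 (30.5%). Calls of at least 2-fold numbered 4879 (26.8%), 1645 higher (9.04%) and 3234 lower (17.8%). From within background range on all untreated arrays to above it on all heated arrays went 402 genes, of which 383 were called, and 286 genes went the other way, of which 284 were called. Without heat shock replicate 3 the called genes numbered 7918 (43.5%), 3391 higher (18.6%) and 4527 lower (24.9%). All 8758 genes kept their sign, and 7296 kept their call. Of the 169 called genes named here, 7 lost their call without that array, namely Cap2, Car3, Clpb, Dnajb6, Fbxw14, Sorbs2 and Vbp1. The balance of the directions depended on scaling: with every array centred on its gene median, which raised the median change over genes from -0.02 to 0.71, the higher share of called genes went from 41.5% to 82.5%, and centred on ribosomal protein genes it was 22.9%. The counts or medians of many gene lists turn with the centring too, and such values are given beside them, with "centred" for the gene median where no other centring is named. Counts of list members are to be read beside the 20% higher and 28.2% lower over all genes. Of 34945 probe sets 15370 passed (44%), 6101 higher (17.5%) and 9269 lower (26.5%). Of the called genes 3412 had at least 2 probe sets above background range, and in 1546 of these all passed in the same direction, while in 359 at least 1 passed in the opposite direction.

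Chaperone genes were among the steepest rises. Hspa1a, a stress-inducible Hsp70, read 5.87, 6.31 and 5.68 in untreated cells and 12.51, 12.14 and 12.65 after heat. All heated arrays stood far above all untreated arrays, and the change was 6.48 ± 0.22 (adjusted p = 8.91e-08). Its near-identical neighbour Hspa1b was bright before heat, at 11.89, 12.06 and 12.12, and read 13.48, 13.44 and 13.63 after it, a change of 1.49 ± 0.13, but its 2 dimmer probe sets rose by 4.43 and 4.03. Signals of these 2 copies are uncertain as separate values. Of 12 measured Hsp70 and Hsp110 genes 5 rose and 2 fell (median 0.23, and -0.01 centred on ribosomal protein genes). Hspa4l, an Hsp110 relative that recharges Hsp70 with nucleotide, went from 9.85, 10.05 and 10.44 to a mean of 12.01 ± 0.03 (SD, n = 3), and Hsph1 rose by 1.0 ± 0.14. The constitutive Hspa8 was among the brightest genes before heat, at 13.44, 13.49 and 13.56, and was not called at 13.61, 13.56 and 13.79 (change 0.16 ± 0.12, adjusted p = 0.279). A dimmer probe set naming Hspa8, with a mean of 9.32 over all 12 arrays, rose by 3.78, so that its probe sets disagree. Hspa4 fell by 0.79 ± 0.13 on its brightest probe set, while 3 dimmer ones had changes of 0.54, 0.46 and 1.73, of which the last passed among probe sets.

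Small heat shock proteins bind unfolding proteins without using ATP, and Bag proteins release clients from Hsp70. Of 14 such genes 8 rose and 3 fell, with a median change of 0.42; centred on ribosomal protein genes 4 rose and 4 fell. Hspb1 read 9.62, 10.00 and 9.44 in untreated cells and 13.72, 13.65 and 13.54 after heat, and its 2 probe sets rose by 3.95 and 4.05. Bag3, which steers clients to autophagy, went from 9.03, 8.94 and 8.90 to 10.91, 10.19 and 10.57, and its partner Hspb8 rose by 1.18 ± 0.14. Cryab, the lens and glial small heat shock protein, rose by 0.42. Hspb6 fell by 1.55 and Bag6 by 1.03. No gene of this group passed the test of the difference between the lines.

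Among 16 cytosolic J-domain genes, whose products bring clients to Hsp70 and start its ATP cycle, 6 rose and 6 fell (centred 9 and 2). Dnaja4 was the largest rise, from 8.08, 8.54 and 8.28 to 11.67, 11.65 and 11.62, and its 3 probe sets rose by 3.14 to 3.34. Dnajb4 rose by 1.71 ± 0.17, Dnajb1, the main partner of Hsp70 in refolding, by 1.33 ± 0.13, and Dnajc9, a histone chaperone, by 1.16. Dnajb5 moved the other way, from 7.87, 8.63 and 7.75 to 5.08, 5.20 and 3.92. Its change of -3.35 ± 0.33 went beyond the -1.02 of Q7 cells (difference -2.33 ± 0.47, adjusted p = 0.018), although its 2 dimmer probe sets had changes of only -0.34 and -0.44. Dnajc27 fell by 2.43.

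Hsp90 works with a set of co-chaperones that load clients and set its ATP cycle. Of 21 genes of this group 7 rose and 5 fell, and the median change of -0.03 was 0.69 with arrays centred on the gene median. Hsp90aa1, the inducible form, went from 12.36, 12.37 and 12.50 to 13.17, 13.11 and 13.41. Its ATPase activator Ahsa1 rose by 1.33 ± 0.15 and the immunophilin Fkbp4 by 1.52 ± 0.26, from 9.41, 10.13 and 10.04 to 11.45, 11.63 and 11.05. Chordc1, which binds Hsp90, rose from 10.61, 10.78 and 10.78 to 12.03, 12.16 and 12.28. Fkbp5, an immunophilin best known for the glucocorticoid receptor, fell instead, from 8.84, 9.63 and 9.16 to 7.74, 7.28 and 6.62. The TRiC chaperonin folds actin and tubulin with prefoldin, which hands it new chains. Of 15 such genes 6 rose and 0 fell by limma (7 and 1 at an unadjusted p under 0.05), namely Cct6a of TRiC and the prefoldins Pfdn1, Pfdn2, Pfdn4, Pfdn5 and Vbp1, the largest being Pfdn4 at 0.99. Of these, Cct6a, Pfdn2, Pfdn5 and Vbp1 each lost their call without 1 or another of the Q111 arrays, Vbp1 without heat shock replicate 3 among them (adjusted p = 0.080). Centred on ribosomal protein genes, 2 of the 15 were higher and 4 lower.

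Mitochondrial genes went both ways. Hspd1 and Hspe1, the chamber and its lid, rose by 0.87 ± 0.12 and 0.93 ± 0.11. The Hsp70 nucleotide exchange factor Grpel1 rose by 0.76 and the inner membrane protease Yme1l1 by 0.82. The inner membrane proteases Afg3l2, Afg3l1 and Spg7 fell by 1.46, 1.43 and 1.21, the disaggregase Clpb by 1.35 (0.76 and not called without heat shock replicate 3, adjusted p = 0.144) and the matrix unfoldase Clpx by 1.10, the last from 8.27, 8.44 and 8.72 to 7.10, 8.0 and 7.02. In all 6 of 17 rose and 7 fell, or 9 and 2 with arrays centred on the gene median.

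**Figure D2:**
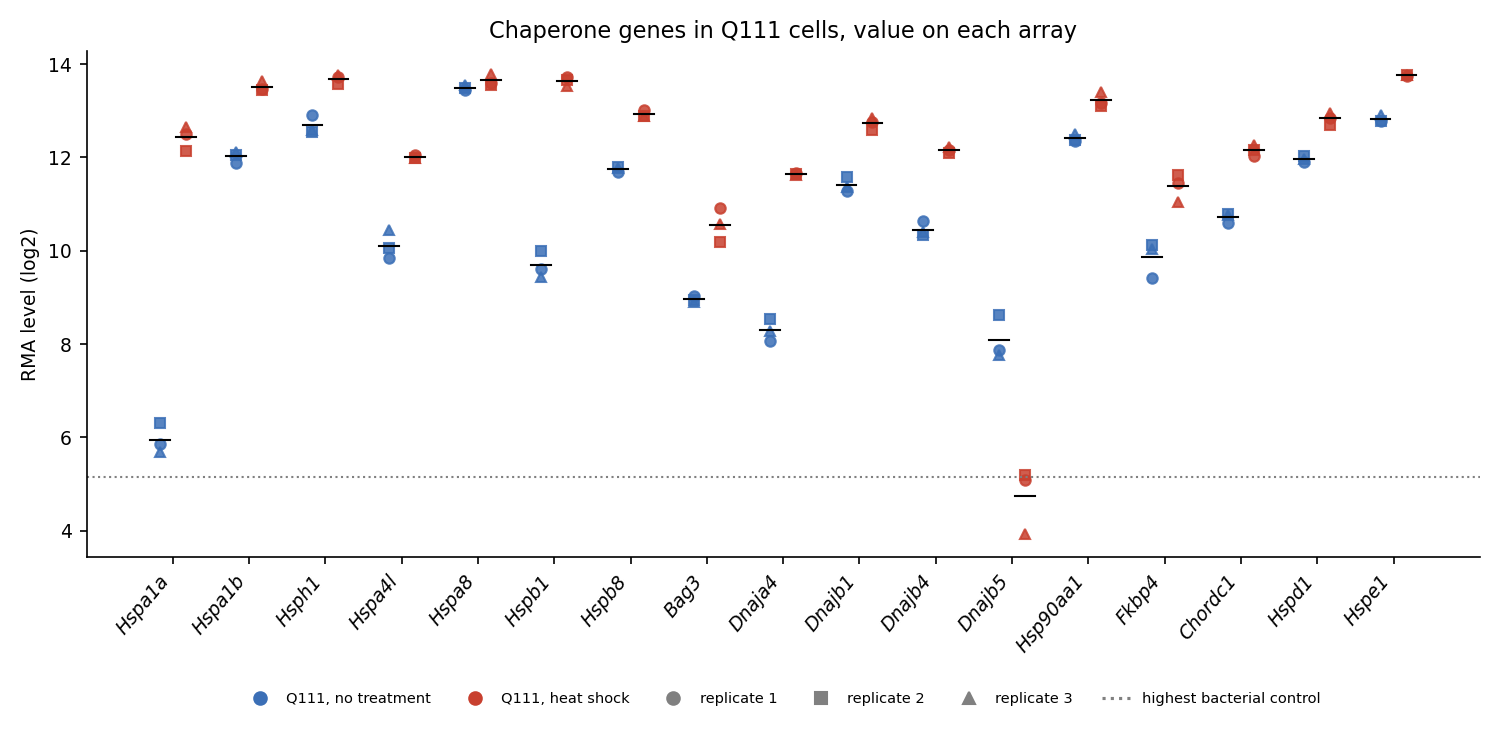
Level (log2, y axis) of 17 chaperone genes on each untreated (blue) and heat-shocked (red) Q111 array, with marker shapes for replicates, short lines for group means and a dotted line at the highest bacterial control, 5.14. Hspa1a, Hspb1 and Dnaja4 show the widest gaps, Hspa8 is bright in both groups and Dnajb5 lies lower after heat.

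Promoter letters were set beside these rises, because HSF1 binds at least 3 alternating GAA and TTC units. The motif GAANNTTCNNGAA, searched on both strands, was looked for in RefSeq promoters of the GRCm38.p6 build, from 250 bases before to 50 bases after each start, of which 14452 of the measured genes have an entry. It was present in 88 of these (0.609%). Of 78 measured chaperone genes with an entry 5 held it (6.41%), namely Chordc1, Dnajb6, Hspd1, Hspe1 and Hsph1, and all 5 were among the 31 called higher (16.1%), with 0 among the other 47. Over all genes it was in 12 of 1265 called at least 2-fold higher (0.949%), in 43 of 7453 not called (0.577%) and in 11 of 2589 called at least 2-fold lower (0.425%). Under 2-fold, it was in 15 of 1592 called higher (0.942%) and 7 of 1553 called lower (0.451%). At 4-fold or more it was in 1 of 268 called higher (0.373%) and 1 of 634 called lower (0.158%). The share did not grow with the size of the rise. These shares are a description, and matches are not sites shown to be bound. Stretches of 2 promoters are shown, chosen because their match lies before a start, with the letters of the match in capitals. In the first, chr1:55088039-55088096 on the plus strand, 2 matches overlap 89 to 72 bases before the start of Hspe1, and as Hspd1 is its neighbour on the opposite strand the same letters lie in an entry of Hspd1, 144 to 127 bases before that start. In the second, chr5:29735832-29735884 on the plus strand, the match lies 46 to 34 bases before a start of Dnajb6, whose product suppresses the aggregation of glutamine tracts.
Hspe1: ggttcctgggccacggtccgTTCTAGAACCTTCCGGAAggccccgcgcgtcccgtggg
Dnajb6: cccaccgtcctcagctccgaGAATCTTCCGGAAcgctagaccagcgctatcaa
Dnajb6 was bright before heat, at 12.38, 12.34 and 12.35, and rose by 0.40 ± 0.12 (adjusted p = 0.0169), a call that was lost without heat shock replicate 3, at a change of 0.34 (adjusted p = 0.052). Hspe1 read 12.79, 12.79 and 12.92 before and 13.74, 13.77 and 13.78 after heat, and Hspd1 11.91, 12.03 and 11.96 before and 12.85, 12.70 and 12.95 after.

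Of 12 heat shock factors and regulators 5 rose and 1 fell, with a median change of 0.60. Hsf1 itself is not analysed here. Hsf2, a partner of Hsf1, read 4.65, 4.04 and 5.14 and then 5.12, 5.70 and 5.02, so the groups overlapped near the background bound (change 0.67 ± 0.31, adjusted p = 0.096). Hsf4 fell from 5.53, 6.28 and 5.53 to 4.89, 4.80 and 4.49, and Hsf2bp rose by 1.49. Of 24 genes in another list of genes known to be induced by heat, some of them also counted in the lists above, 12 rose and 1 fell. Zfand2a, which links to the proteasome, read 10.12, 10.75 and 10.77 before and 12.13, 12.02 and 11.99 after, and all 4 of its probe sets rose by 1.50 to 1.98. Serpinh1, the collagen chaperone, rose by 1.12 ± 0.15. Rgs2, a brake on G protein signalling, went from 6.80, 6.68 and 6.46 to 8.82, 9.52 and 8.56, more than in Q7 cells (difference 1.87 ± 0.31, adjusted p = 0.0076), and the transcription factor Klf4 rose by 1.54 ± 0.21 with a difference of 1.22 ± 0.30 (adjusted p = 0.04). Hmox1, the haem-degrading enzyme, overlapped between the groups (0.42 ± 0.25, adjusted p = 0.186). Usp4, a deubiquitinase, was the member that fell, by 1.98, while its second probe set had a change of 0.60 and did not pass.

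Of 33 proteasome genes 5 rose and 5 fell (centred 26 and 0), both below the shares over all genes of 20% and 28.2%, with Psma6 at 0.55 and the activator Psme4 at -1.02. In the endoplasmic reticulum 11 of 32 genes rose and 5 fell (median 0.17, and -0.08 centred on ribosomal protein genes). Sdf2l1, Dnajb9 and Pdia4, which fold or hold secreted proteins, rose by 1.59, 1.39 and 1.28, and the stress sensor kinase Eif2ak3 by 1.37, while Sel1l of the degradation complex fell by 1.31 and the sensor Atf6 by 0.99. Of 25 autophagy genes 8 were higher and 8 lower (centred 17 and 4): the conjugation genes Atg12 and Gabarapl2 rose by 1.19 and 1.18, and the kinase Ulk2 fell by 2.24 and the master regulator Tfeb had a change of -1.80. Of 34 genes of the ATF4 and amino acid response 8 rose, led by Cebpb (1.96), the hormone Fgf21 (1.85) and Cebpg (1.40), and 4 fell, the transporter Slc7a5 by 1.19 (centred 25 and 0). The share that rose lies near that of all genes. Ddit3, the stress factor CHOP, read 10.48, 10.88 and 10.81 and then 11.06, 11.28 and 10.69, and was not called. Among 22 NRF2 targets and regulators 1 rose and 8 fell, the largest being the NRF2 inhibitor Keap1, from 9.82, 10.09 and 10.05 to 8.38, 8.04 and 7.29. The median of that list, -0.26, was 0.47 with arrays centred on the gene median. The zinc exporter Slc30a1 rose from 8.33, 7.97 and 7.53 to 10.23, 9.86 and 10.13, whereas metallothionein Mt1 stayed within its spread, with means of 12.61 ± 0.36 (SD, n = 3) and 12.59 ± 0.03 (SD, n = 3). A dimmer probe set of Slc30a1 had a change of -0.49 and did not pass.

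Genes of rapid transcriptional responses included large rises. Atf3, a stress-induced repressor, went from 8.63, 9.06 and 9.14 to 12.33, 12.27 and 12.17, and Fos from 9.50, 9.16 and 9.65 to a mean of 11.84 ± 0.26 (SD, n = 3). Of 32 immediate early factors 14 rose and 1 fell, among them Maff and Arc by 2.40 and 2.10. Of 21 feedback regulators of MAP kinases 6 rose and 5 fell, beside 20% and 28.2% of all genes (centred 11 and 3). The ERK phosphatase Dusp6 read 8.97, 8.72 and 8.51 before and 10.88, 10.85 and 10.97 after, with no such rise in Q7 cells, whose change was -0.06 (difference 2.22 ± 0.20, adjusted p = 0.0014). Phlda1 rose by 1.85 ± 0.13, with a difference of 1.62 ± 0.19 (adjusted p = 0.0021). Of 6 Sprouty and Spred genes, which block Ras signalling, Spred2 fell from 8.44, 8.59 and 8.54 to 6.29, 5.36 and 4.95, Spred3 by 2.13 and Spry1 by 1.41, and Spry2, Spry4 and Spred1 were not called. For Spred2 a second probe set fell by 2.56 and another, dimmer still, passed upward at 1.01.

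Of 26 p53 targets 16 rose and 3 fell, with a median change of 0.61. Eda2r, a death domain receptor, rose by 2.42, Trp53inp1 by 2.19, Fas by 1.56, and the cell cycle inhibitor Cdkn1a from 11.03, 9.98 and 9.94 to 12.04, 11.82 and 11.86. Of 17 BCL2 family genes 5 rose and 4 fell (centred 9 and 0), beside 20% and 28.2% of all genes. The death-promoting BH3-only genes Pmaip1, Bbc3 and Bmf rose by 1.41, 1.38 and 1.31. The survival gene Bcl2 fell by 0.98 and the executioner Bak1 by 0.73, and Bid by 1.10.

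Interferon-stimulated genes, the antiviral set driven by STAT and IRF factors, were lower after heat. Of 28 measured 0 rose and 21 fell by limma, with 0 and 22 at an unadjusted p under 0.05 and 3 and 18 with arrays centred on the gene median. The median change of -1.68 was -0.96 with arrays centred on the gene median, -1.38 without heat shock replicate 3 and -0.12 in Q7 cells. Rtp4 went from 8.52, 9.20 and 9.81 to 5.50, 6.32 and 4.40, and Lgals3bp from 9.29, 9.83 and 9.45 to 5.98, 6.19 and 5.35. Parp14 fell from 8.41, 9.01 and 8.84 to 5.58, 6.14 and 5.48, although its dimmer probe set rose by 1.09. The RNA sensor Dhx58 fell by 2.90 ± 0.23, and Oasl2 from 7.26, 8.16 and 8.61 to 4.85, 4.96 and 4.69, within background range. For 16 of the 28 genes Q111 cells had the lower change by the test of the difference, which 4.51% of all genes passed in that direction. In untreated Q7 cells the means of 6 of these 16 genes, and of 13 of the 28, were within background range, where a fall could not have been seen. Of 13 genes of MHC class I presentation, which the same factors drive, 3 fell, no more than the 28.2% of all genes (centred 6 rose and 2 fell). Among those that fell were the transactivator Nlrc5 by 1.58 and the transporter Tap1 by 1.39.

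NF-κB targets fell more often than they rose, 10 against 4 of 23, as did all genes (28.2% against 20%). With arrays centred on the gene median 11 rose and 9 fell, and the median of -0.32 turned to 0.41. The inhibitor Nfkbie fell from 8.41, 9.15 and 8.99 to 6.19, 6.66 and 5.17, and the survival gene Birc3 (-2.25), Traf1 (-2.18) and the adhesion gene Vcam1 (-2.06) also fell on their brightest probe sets. Icam1, another adhesion gene, went the other way, from 5.14, 5.29 and 5.20 to 7.10, 6.85 and 6.24, as did the cytokine Il6 (1.39), Nfkbiz (1.20) and Ptgs2 (1.06).

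Of 35 collagen and collagen processing genes 22 fell and 4 rose (median -0.84; centred 6 fell and 8 rose, median -0.12). The network collagens Col8a1 (-3.50) and Col4a2 (-2.50) fell, whereas Col27a1, a cartilage collagen, rose from 5.03, 6.0 and 5.34 to 7.58, 7.17 and 7.62 and the prolyl hydroxylase P4ha1 from 10.52, 10.35 and 10.66 to 11.90, 12.10 and 11.68. Among 34 matrix glycoproteins 21 fell and 2 rose (median -0.79; centred 13 fell and 8 rose, median -0.06). The elastic fibre gene Emilin1 fell from 9.78, 11.11 and 10.51 to 6.83, 6.93 and 5.76, and the fibrillin Fbn2 from 11.33, 11.18 and 11.31 to 8.01, 7.25 and 8.06. In Q7 cells Fbn2 changed by 0.36 (adjusted p = 0.51), and the difference was -3.86 ± 0.51 (adjusted p = 0.0032). The mean of untreated Q7 cells, 5.01, was within background range, so that a fall could not have been seen there. Among 23 metalloproteases and inhibitors 12 fell and 3 rose (median -0.88; centred 6 fell and 8 rose, median -0.15), with the aggrecan-cutting Adamts4 from 9.82, 10.87 and 10.42 to 7.20, 7.08 and 5.90.

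Of 24 BMP, Id and TGF-β genes 6 rose and 9 fell, beside 20% and 28.2% of all genes (median -0.19). Centred, 13 rose and 5 fell, with a median of 0.53. The ligands Bmp4 (-3.32), Tgfb1 (-2.32) and Tgfb2 (-2.11) fell, Bmp4 from 9.80, 9.26 and 9.44 to 6.57, 6.99 and 4.99. Of other ligands Inhba, a chain of activin, rose by 0.78, and Bmp2 was not called (0.65). Of the inhibitor of differentiation genes, textbook BMP targets that block differentiation factors, Id2 rose from 8.86, 7.97 and 8.22 to 11.19, 11.04 and 11.16, Id1 by 1.85 and Id4 by 1.81, and Id3 was not called (0.29). The inhibitory Smad7 rose by 1.63. Of 24 genes of the YAP and TAZ pathway, which follows cell tension, 14 were lower and 0 higher by limma (15 and 0 at an unadjusted p under 0.05). These are the factors, their partners and regulators, and targets. Their median of -0.52 was, however, 0.20 with arrays centred on the gene median. The exchange factor Arhgef17 (-2.95) and the DNA-binding partner Tead4 (-2.80) were lower.

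Of 11 long RNAs, hosts of small nucleolar RNAs and others, 8 were higher and 1 lower. The 8 are all such hosts, non-coding RNAs kept low by translation-linked decay. Snhg12 read 10.50, 10.39 and 10.55 before and 12.16, 12.14 and 12.06 after, Snhg3 rose by 1.86 ± 0.24 and Snhg8 by 1.30, and the structural RNA Neat1, no host, fell by 0.68 on its brightest probe set, a change of 0.0511 when centred, while its dim second probe set passed upward at 1.5. Cold-inducible Cirbp, which rises when cells are cooled, fell from 8.84, 8.42 and 8.41 to 6.82, 7.08 and 6.06. The splicing factor Srsf5, also cold-inducible, fell from 12.36, 11.65 and 12.10 to 10.42, 10.25 and 10.42, more than in Q7 cells (difference -1.07 ± 0.26, adjusted p = 0.035). The splicing factors Srsf2 and Tra2a rose by 1.23 and 1.18, and Srrm1 fell by 1.20. Of 24 in that list 7 rose and 5 fell (centred 19 and 1). Circadian genes were higher in 3 of 20 and lower in 4, both below the 20% and 28.2% of all genes (centred 9 and 0), with the repressor Cry2 at -1.25.

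In metabolism and growth, the sign of each list median turned with the centring given beside it. The sign held with the other centring and with further quantile normalization. With that normalization the median was -0.56 for cholesterol genes, -0.04 for S phase genes and 0.10 for respiratory chain subunits. Of 21 cholesterol genes 13 fell and 3 rose (median -0.58, centred 0.14), led by the master factor Srebf2 at -1.73. Of 26 glycolysis and hypoxia genes 12 fell and 2 rose (median -0.29, centred 0.43), with the hexokinases Hk2 and Hk1 at -1.70 and -1.50, while the growth factor Vegfa rose by 0.93. Ribosome biogenesis had 13 of 32 lower and 5 higher (median -0.28, centred 0.45), with the polymerase subunit Polr1b at -1.76. Respiratory chain subunits leaned the other way, 17 of 50 higher and 5 lower (median 0.16, and -0.09 centred on ribosomal protein genes), with Cox7c at 1.83 and Ndufa1 at 1.11. Mitosis genes were lower in 14 of 31 and higher in 1 (median -0.45, centred 0.27), with Mki67, the proliferation antigen, at -1.60. Among 32 S phase genes 12 fell and 3 rose (median -0.11, centred 0.62), with the polymerase subunit Pole at -2.62 and Ccne2, a cyclin, at 1.46. Huntingtin and its partners had 8 of 20 lower and 0 higher by limma, 8 and 1 at an unadjusted p under 0.05 (median -0.47, centred 0.26). Htt itself read 7.51, 7.85 and 7.37 before and 6.72, 6.60 and 6.82 after heat, a fall of 0.87 ± 0.17 (adjusted p = 0.00147), but its second brightest probe set, with a mean of 5.50 over 12 arrays, passed upward, at 1.44.

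**Figure D3:**
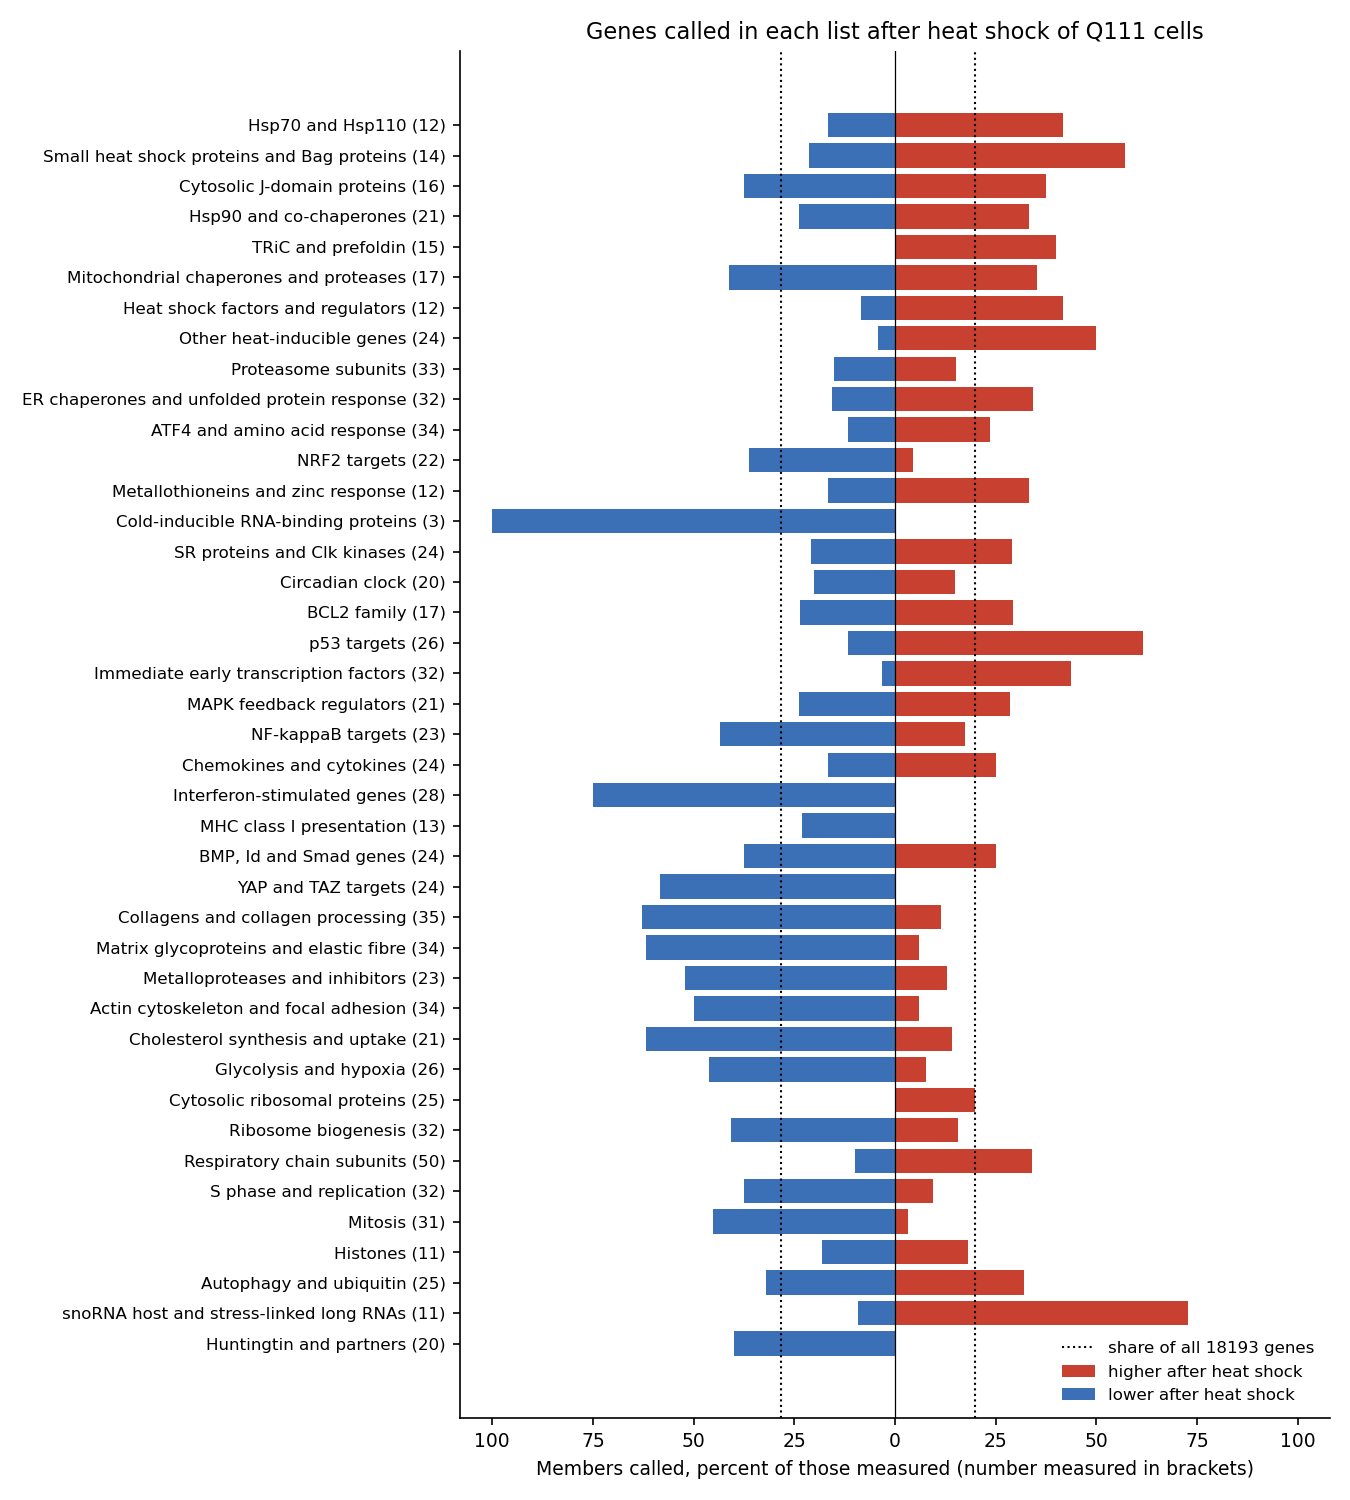
Share of measured members called higher (red, to the right) or lower (blue, to the left) after heat shock in Q111 cells for 41 gene lists, as percent of members with the number measured in brackets, with dotted lines at the shares over all 18193 genes (20% higher, 28.2% lower). Interferon-stimulated genes, collagens and matrix glycoproteins extend left, and p53 targets, small heat shock proteins and snoRNA hosts extend right.

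The changes on which several probe sets of a gene concur reach beyond these lists. Genes with at least 2 probe sets above background range, all passing in 1 direction, were ranked by their smallest probe set change. The ATP-gated channel P2rx7 came first among rises, from 5.32, 4.56 and 4.77 to 10.49, 10.10 and 10.33, with a smallest probe set change of 4.90. Its rise of 5.42 ± 0.24 exceeded the 3.38 of Q7 cells (difference 2.04 ± 0.34, adjusted p = 0.0079). Hspb1, Dnaja4 and Id2, given above, were among the 12 leading rises, with the secreted chaperone Clu (2.76 ± 0.20), the phospholipase-like Plcxd2 (2.96 ± 0.14), the RNA Snhg10 (2.53 ± 0.14) and Ccdc117 (2.17 ± 0.17). The other 4 were uneven between arrays. Adam23, a brain disintegrin, read 4.70, 4.62 and 6.57 and then 7.90, 7.65 and 10.00, high on the third array of both groups, and Apol11b and Wdr66 were also highest on heat shock replicate 3, at 8.66 and 8.15. Car3, a carbonic anhydrase, lost its call without that array (change 1.91, adjusted p = 0.11). Among falls Btbd11 led, from 9.46, 9.49 and 9.33 to 5.79, 6.0 and 5.22, followed by Pomk, a kinase that modifies dystroglycan (-3.17 ± 0.33), the actin-binding supervillin gene Svil (-3.30 ± 0.21), Disp1, which releases hedgehog ligands (-2.85 ± 0.30), and Nfkbie. Atxn1, whose own glutamine tract expands in spinocerebellar ataxia, fell from 9.05, 9.02 and 8.77 to 5.72, 4.96 and 5.66. The remaining falls were the anion channel subunit Lrrc8c, the helicase Ddx11, Zfp28, Frmd5, the sorting gene Vipas39 and Rsad1, at -2.72 to -3.26. All 12 falls kept their calls without heat shock replicate 3.

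**Figure D4:**
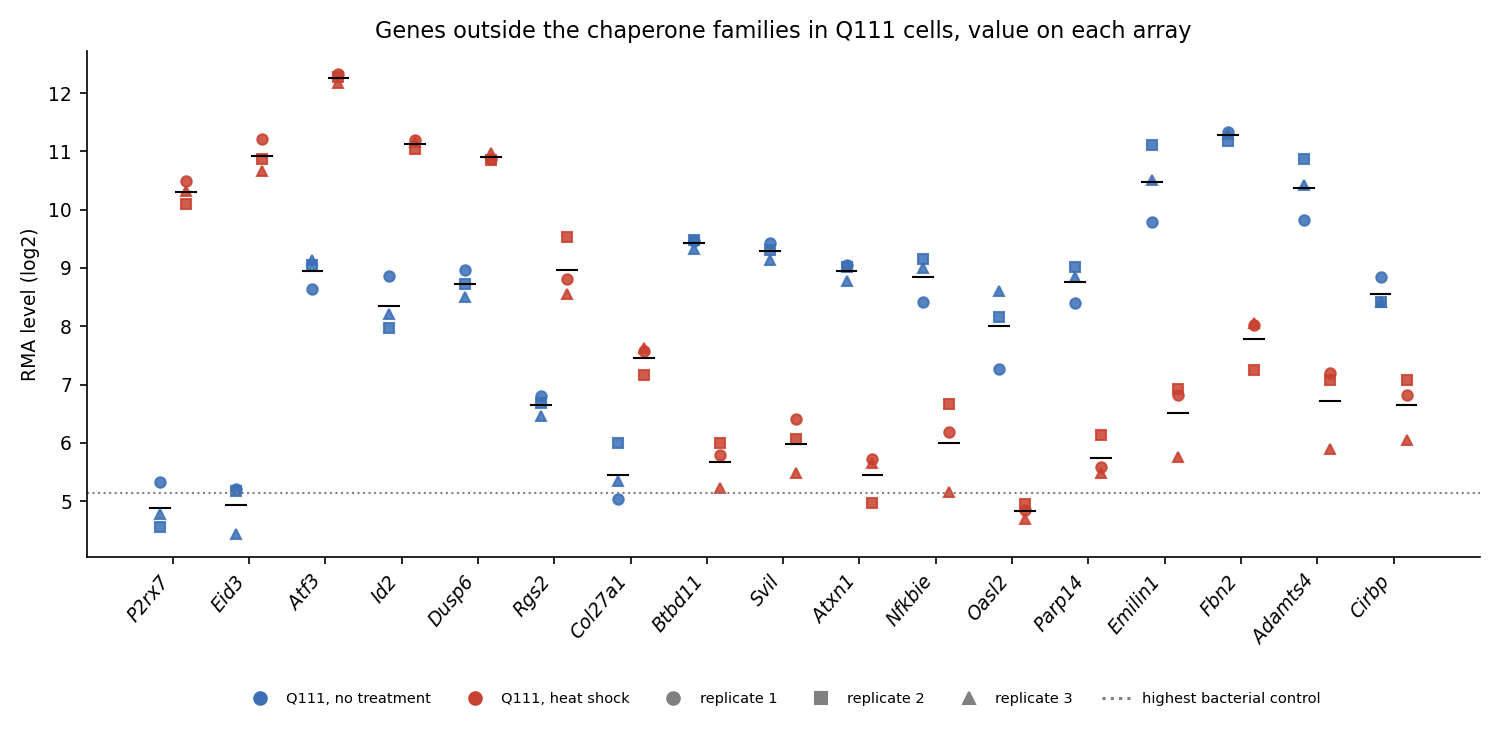
Level (log2, y axis) of 17 genes outside the chaperone families on each untreated (blue) and heat-shocked (red) Q111 array, with marker shapes for replicates, short lines for group means and a dotted line at the highest bacterial control, 5.14. P2rx7 and Eid3 rise from background range, and Oasl2 falls into it.

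Heat shock of Q7 cells changed 30.4% of genes by the same test. The size of the response differed between the lines for 1041 genes (5.72%), with the Q111 change above the Q7 change in 221 (1.21%) and below it in 820 (4.51%). Without heat shock replicate 3 these were 1137 genes, 367 above and 770 below, but 379 without Q7 heat shock replicate 3, 500 without Q7 heat shock replicate 1 and 532 without Q111 untreated replicate 2. The untreated Q7 mean was within background range for 34 of the 221 and 96 of the 820, and for 6319 of all genes. Among genes higher by more in Q111 cells, Eid3 rose from 5.21, 5.17 and 4.43 to 11.21, 10.87 and 10.66, a change of 5.97 ± 0.25 against 3.21 in Q7 cells. Mcts2 rose by 2.72 ± 0.15 against 0.07, and the acute phase gene Saa3 by 2.68 ± 0.51 against -0.29. Parm1 rose by 1.15 in Q111 cells, from an untreated mean of 5.35 close to background range, and fell by 1.53 in Q7 cells, from 8.33. Sorbs2 and Cap2, both actin-linked, were opposite in the same way, at 1.51 against -2.39 and 1.07 against -1.63. Their untreated Q111 means, 4.14 and 4.56, were within background range, so that a fall in Q111 cells could not have been seen. Their rises in Q111 cells were lost without heat shock replicate 3 (adjusted p = 0.12 and 0.064). Among genes lower by more, the lipocalin Apod fell from 8.75, 7.96 and 8.91 to 6.33, 5.98 and 6.49 in Q111 cells and rose by 1.26 in Q7 cells, where the untreated mean of 4.99 was within background range, and a dim second probe set had a change of 0.65 in Q111 cells. Lrrc17, an antagonist of bone resorption, fell from 10.00, 10.42 and 10.86 to 7.63, 7.97 and 6.92 and its dimmer probe set did not pass; Q7 cells had means of 3.89 and 4.34, both within background range, so that no fall could have been seen there. Zfp386 fell by 3.37 ± 0.37 and the homeobox gene Six5 by 2.69 ± 0.30, against 0.11 and 0.55 in Q7 cells.

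**Figure D5:**
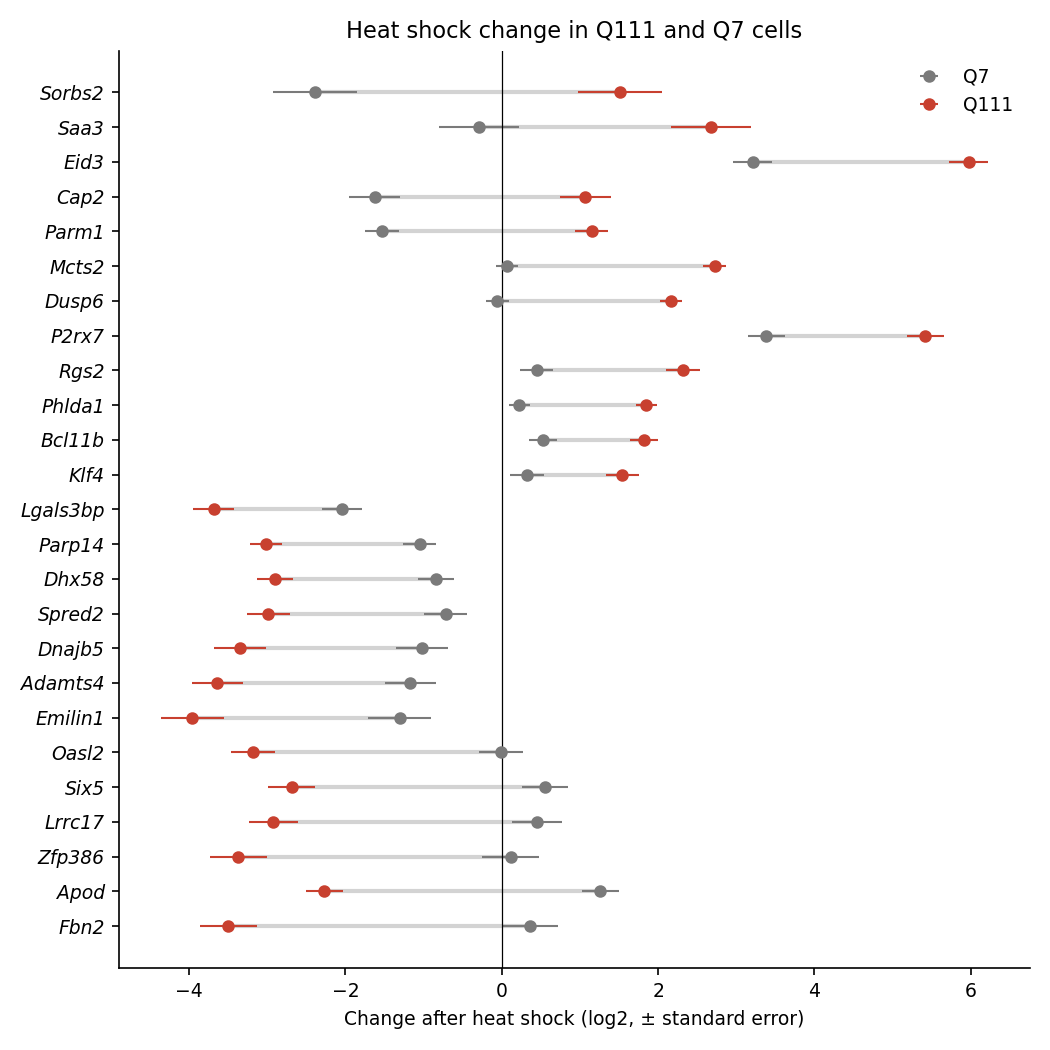
Change after heat shock (log2, x axis) in Q111 cells (red) and Q7 cells (grey) for 25 genes whose change differed between the lines. Bars are standard errors from the fit to all 12 arrays, which gives a gene the same error in both lines. Dusp6 and Mcts2 move in Q111 cells with Q7 values near 0, and Apod, Parm1, Sorbs2 and Cap2 lie on opposite sides of 0.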

How the data were processed

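RNA of 12 arrays (4 groups of 3) was read. Per the submitters' processing notes the authors used RMA, a method of background correction, quantile normalization and probe summary, and what they deposited are levels on the log2 scale for each probe set. RMA's software, version and chip definition: not given in the sources used here. Raw scanner data were not used, the background of single probes was therefore not examined, and precision is limited by the number of arrays. Of 45101 probe sets 34945 named 1 gene, 932 several and 9160 are unnamed here; the last 2 kinds and 64 controls were left out. A gene was read by its brightest probe set over all arrays, and 9010 genes had more than 1.

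limma 3.58.1 in R 4.3.3 fitted 4 group means to all 12 arrays (8 residual and 3.23 prior degrees of freedom), two-sided, with Benjamini-Hochberg adjustment over 18193 genes or, for probe sets, over 34945. Calls need an adjusted p under 0.05. The code was tested on simulated data. The 49 gene lists held 1079 genes, 1003 measured. Members, lists and naming rules were chosen with earlier results of these data known. Genes named were the 12 rises and 12 falls with the largest smallest change over probe sets that all pass, chaperones, in other lists up to 4 called members with the largest change and those against the majority, a set of stress genes, the 6 highest and 6 lowest on heat shock replicate 3, and the 6 largest differences between lines each way; Drd2 and Ppp1r1b were added as defining markers. Alternatives were other probe set choices, filters, scalings, variance models, a replicate block, an actin covariate, thresholds and each array left out.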

Additional observations from a re-analysis of the deposited data

Results flagged for a closer look

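These named genes passed the limma test of the difference between the heat shock change in Q111 cells and that in Q7 cells (Benjamini-Hochberg over all genes, where 5.72% passed), and values are the Q111 change minus the Q7 change on the log2 scale. Above 0 were Sorbs2 at 3.90, Saa3 at 2.97, Eid3 at 2.77, Cap2 at 2.69, Parm1 at 2.68 and Mcts2 at 2.66. Signalling and early response genes above 0 were Dusp6 at 2.22, Rgs2 at 1.87, Maff at 1.71, Phlda1 at 1.62, Klf4 at 1.22 and Ptgs2 at 0.86. The channel P2rx7 was at 2.04, the ligand Bmp2 at 3.39, the striatal factor Bcl11b at 1.29 and the RNA Snhg10 at 0.88. Bmp2 was not called in Q111 cells, and most of its difference came from a lower level after heat in Q7 cells. Sorbs2 and Cap2 fell in Q7 cells, while their untreated Q111 means, 4.14 and 4.56, were within background range. A fall of either gene in Q111 cells could not have been seen.

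Below 0 were the matrix genes Fbn2 at -3.86, Emilin1 at -2.66 and Adamts4 at -2.47. Interferon and presentation genes were Oasl2 at -3.17, Tap1 at -2.48, Dhx58 at -2.06, Nlrc5 at -1.98, Parp14 at -1.97 and Lgals3bp at -1.64. Regulators of transcription, splicing and signalling were Zfp386 at -3.48, Six5 at -3.24, Arhgef17 at -2.65, Spred2 at -2.27 and Srsf5 at -1.07. The J-domain gene Dnajb5 was at -2.33. The others were Apod at -3.53, Lrrc17 at -3.37, Svil at -2.03, Disp1 at -1.73, Vipas39 at -1.73 and Ddx11 at -1.70. Means of untreated Q7 cells were within background range for Oasl2 (2.82), Lrrc17 (3.89), Apod (4.99), Fbn2 (5.01) and Bcl11b (4.83), so that a fall of these genes in Q7 cells could not have been seen.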

How the results depend on the processing

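With arrays centred on the gene median 13331 genes were called, 10992 higher and 2339 lower, and 24535 probe sets. Also without heat shock replicate 3, chosen after seeing the data, that centring gave 10339 higher and 2115 lower. Centred on ribosomal protein genes 2044 were higher. The second brightest probe set, tested on fewer genes, gave 3851 (1440 higher, 2411 lower) and 286 differences of effects. Probe sets one by one gave 15370, 6101 higher and 9269 lower. Brighter genes alone gave 5567, 1627 of them higher. The actin covariate gave 4381 (1402 higher, 2979 lower), 407 differences and 7030 probe sets. An adjusted p under 0.01 gave 5719, 1932 higher, 224 differences and 9778 probe sets, and at least 2-fold gave 4879 (1645 and 3234) and 8964 probe sets. Array weights gave 3406 differences in place of 1041. The 6 Q111 arrays alone, with their own estimate of spread, gave 6844 called genes (2596 higher, 4248 lower). The causes of these shifts were not tested.

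Leaving out each array in turn gave 7205 to 8572 called genes, 2706 to 3546 higher and 4419 to 5184 lower, 12505 to 15168 probe sets, and 379 to 1238 differences of effects. The differences moved most without Q111 untreated replicates 1 (648), 2 (532) and 3 (683), Q7 untreated replicates 2 (590) and 3 (574) and Q7 heat shock replicates 1 (500) and 3 (379). A replicate block gave 8706 called genes, and 168 of the 169 called genes named here kept their call. The labels do not say whether replicate numbers pair the samples, and these values do not settle it. Deviations of same-numbered arrays correlated at 0.10, 0.18 and 0.24, and those of other pairs at -0.29 to 0.19. Untreated replicate 2 correlated more with heat shock replicate 1, at 0.19, than with heat shock replicate 2.

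Of those 169 genes, 162 kept their call without heat shock replicate 3, 158 with the mean of all probe sets, 152 with arrays centred on the gene median, 160 with further quantile normalization and 145 with the actin covariate. On the second brightest probe set 79 of 114 kept it and 16 changed sign: Apod 0.65, Birc3 0.40, Bmf -0.69, Col27a1 -0.28, Gabarapl2 -0.15, Hsf2bp -0.55, Hspa4 0.47, Htt 1.44, Inhba -0.24, Lrrc17 0.0873, Neat1 1.5, Parp14 1.09, Slc30a1 -0.49, Srsf2 -0.18, Traf1 0.34 and Usp4 0.60. The mean of probe sets turned Hspa4 to 0.49 and Neat1 to 0.41. Centring on the gene median turned Neat1 to 0.0511, Drd2 to 0.61 and Mt1 to 0.71, and with heat shock replicate 3 also left out Bak1 to 0.0345, Drd2 to 0.57, Mt1 to 0.62, Chid1 to 1.16 and Ppp1r35 to 1.46. Without that array, further quantile normalization put Chid1 at 0.96 and Ppp1r35 at 1.39. Ppp1r35, not called, ranged from -0.63 to 0.84 with single arrays left out.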

Other observations

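Heat shock replicate 3 stood apart from the other 2 heated arrays in some named genes. Highest against the mean of the other 2 heated arrays were the muscle gene Mybpc1, Fbxw14, the syntrophin Sntb1, the islet zinc transporter Slc30a8, the transcription cofactor Lmo3 and the glucuronosyltransferase Ugt2b37, by 2.67 to 2.89. Among the untreated arrays each of these genes was likewise highest on replicate 3, Lmo3 at 3.81, 3.19 and 6.16. Their height is thus shared by the third arrays of both groups. Mybpc1 read 5.64, 5.39 and 8.40 after heat, and in untreated cells 3.88, 4.27 and 5.72. Slc30a8 read 5.35, 5.32 and 8.05, and in untreated cells 4.78, 4.20 and 5.65. Lowest were Ppp1r35, Rwdd2a, Chid1, the lysosomal sialidase Neu1, Gnb1l and Dcbld1, by -2.13 to -2.57. Ppp1r35 read 7.44, 8.18 and 5.24 after heat against 6.66, 7.47 and 6.78 before it. Of these 12 genes Fbxw14 alone was called (change 2.24 ± 0.79, adjusted p = 0.036), and not without that array (adjusted p = 0.12).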
